A study of Oryza sativa with 6 samples.

Results

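Cell cycle and histone genes of rice were followed in seedlings given an auxin, a cytokinin or solvent alone. They were chosen by name: a gene belonged if a name in the RefSeq gene table, with any leading Os dropped, began with CYCA, CYCB, CYCD, CYCT, CDKA, CDKB, KRP, E2F, MCM or PCNA, or with H2A, H2B, H3 or H4 and no further letter. The rule uses no measured value. The rule found 54 genes in the table, of which 42 had a probe set named with 1 gene, out of 17905 genes so named on the array. All 42 were bright enough to be tested, among 16464 tested genes. They were 8 MCM genes, 1 PCNA gene, 5 H2B histone genes, 9 D-type, 3 A-type, 4 B-type and 2 T-type cyclin genes, 2 CDKA genes, 1 CDKB gene, 4 KRP genes and 3 genes that the label does not describe. Those 3, OSH3, OSH43 and OSH45, are homeobox genes of the KNOX family and matched only because dropping Os leaves H3, H43 and H45. No gene of histone H2A, H3 or H4 and no E2F gene matched, so the histones measured here are H2B only. The other 12 genes of the rule (CYCA3-1, CYCB1-5, CDKB1-1, CYCD2-1, H2B.2, H2B.3, H2B.4, H2B.9, H2B1, KRP2, KRP3 and CYCT1-1) were not analysed here.

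Cyclins bind cyclin-dependent kinases (CDKs) and set when these act. In plants, D-type cyclins with CDKA drive entry into the cycle, A-type cyclins act mainly in DNA synthesis, and B-type cyclins with CDKB act at mitosis. KRP proteins inhibit the kinases. MCM2 to MCM7 form the ring-shaped helicase that is loaded on DNA before it is copied, PCNA is the clamp that holds the polymerase on the template, and H2B is 1 of the histones that package the new DNA. Cytokinin is known to raise transcripts of CYCD3 in Arabidopsis, and auxin is known to act on D-type cyclins and KRP genes there.

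The seedlings were 7-day-old, light-grown plants of the indica variety IR64. The IAA group received 50 µM indole-3-acetic acid, an auxin, the BAP group 50 µM benzyl aminopurine, a cytokinin, and the control group 0.1% dimethyl sulfoxide. Tissue taken at 1 h and 3 h was combined in equal parts in every sample, so the 2 times were not separated. Each group had 2 biological replicates by the series design, each on an Affymetrix rice array, and 34316 probe sets were tested. The label gives whole seedlings, in which fewer cells of a type and less RNA per cell cannot be told apart.

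The deposited median intensity lay between 16.6 and 23.1 on the 6 arrays, and their number limits the precision. Replicates correlated at r = 0.988 (control), 0.983 (IAA) and 0.983 (BAP) across probe sets, which do not vary independently. The first BAP array was closer to the control arrays (r = 0.985 and 0.984) than to BAP array 2, and the second principal component set BAP array 2 apart at -40.1, with BAP array 1 at 4.14. Control and IAA arrays were run on 1 day and BAP arrays on another, so BAP and run day cannot be told apart. The fluidics module also differed between controls (1 and 2) and both hormone groups (3 and 4), and its share in either hormone's difference from the control cannot be separated. The auxin-response gene IAA20 and the cytokinin-response regulator RR9 were chosen with earlier results of these data known, so no support is drawn from them. IAA20 had normalized intensities of 203 and 189 on the control arrays, 2485 and 2763 on the IAA arrays and 225 and 182 on the BAP arrays. RR9 had 237 and 306 on the control arrays, 116 and 132 on the IAA arrays and 2055 and 1909 on the BAP arrays. The log2 changes were 3.64 for IAA20 with IAA and 2.81 for RR9 with BAP (limma adjusted p = 2.32e-05 and 0.000225). The leaf markers CAB2R and OsrbcS were bright on all arrays, whereas RBCS1 was too dim to be tested (4.23 to 12.7).

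With IAA, the genes of the MCM helicase and PCNA had lower values than in the control, though no difference passed the test. All 6 MCM2 to MCM7 genes and PCNA had both IAA arrays below both control arrays, with log2 differences from -0.37 to -0.47 and a median of -0.40. None passed the adjusted threshold of 0.05 (limma, Benjamini-Hochberg over 34316 probe sets), and all 7 had an unadjusted p under 0.05. Without control array 1 or IAA array 2 only 2 of the 7 had one, and without control array 2 only 3. Of all tested probe sets, 0.851% passed, 5.6% were lower at an unadjusted p under 0.05 and 22.9% were lower without overlap. With BAP the same 7 genes had a median log2 difference of -0.16 from the control, with PCNA at 0.00. Log2 values here are on the log2(intensity + 16) scale, which understates the change of dim genes, and intensities are quantile normalized.

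PCNA (LOC4331062) had intensities of 880.2 and 855 on the control arrays, 637 and 617 on the IAA arrays and 827 and 912 on the BAP arrays. The IAA arrays lay below all the others, and the BAP and control arrays overlapped. The means were 868 ± 17.8 in the control, 627 ± 14.2 with IAA and 869 ± 59.9 with BAP (SD, n = 2 each). The log2 difference of IAA from control was -0.46 (95% interval -0.71 to -0.21), the smallest p among the members in that comparison (limma adjusted p = 0.124). BAP differed from control by 0.00 (95% interval -0.24 to 0.25) and from IAA by 0.46 (95% interval 0.21 to 0.71), again the smallest p of the members, at a limma adjusted p of 0.0733.

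MCM2 (LOC4350526) is the brightest probe set of the MCM genes, with intensities of 566 and 593 on the control arrays, 488 and 405 on the IAA arrays and 507 and 647 on the BAP arrays. Its IAA arrays were the lowest, and BAP array 2 was above both control arrays. MCM5 (LOC4331016) had intensities of 453 and 443 on the control arrays, 337 and 302 on the IAA arrays and 420.4 and 378 on the BAP arrays. Here the groups lay in the order IAA, BAP, control with no overlap. The log2 difference of MCM5 was -0.47 with IAA (95% interval -0.76 to -0.18, limma adjusted p = 0.186) and -0.16 with BAP (95% interval -0.45 to 0.13, limma adjusted p = 0.897). MCM3 (LOC4339099) had intensities of 409 and 435 on the control arrays, 351 and 287 on the IAA arrays and 382 and 368 on the BAP arrays. Its groups also did not overlap, in the same order, with -0.39 for IAA (limma adjusted p = 0.31).

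MCM4 (LOC107275673) had intensities of 304 and 304 on the control arrays, 254 and 199 on the IAA arrays and 247 and 282 on the BAP arrays. MCM6 (LOC4338176) had 228 and 197 on the control arrays, 170.2 and 144 on the IAA arrays and 196 and 182 on the BAP arrays. MCM7 (LOC4352514) had 218 and 199 on the control arrays, 174 and 142 on the IAA arrays and 165 and 200.3 on the BAP arrays. In all 3 genes IAA array 2 was the lowest. In MCM4 IAA array 1 lay between the BAP arrays, in MCM6 it lay below them, and in MCM7 BAP array 1 lay between the IAA arrays. IAA array 2 was lower than IAA array 1 in all 6 MCM2 to MCM7 genes: against the control mean, their median log2 difference was -0.25 on IAA array 1 and -0.52 on IAA array 2, and -0.16 and -0.15 on the BAP arrays. Without IAA array 2 the median of the 7 genes with PCNA was -0.25, and without IAA array 1 it was -0.51. PCNA itself was alike on the IAA arrays, at -0.44 and -0.48.

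**Figure D1:**
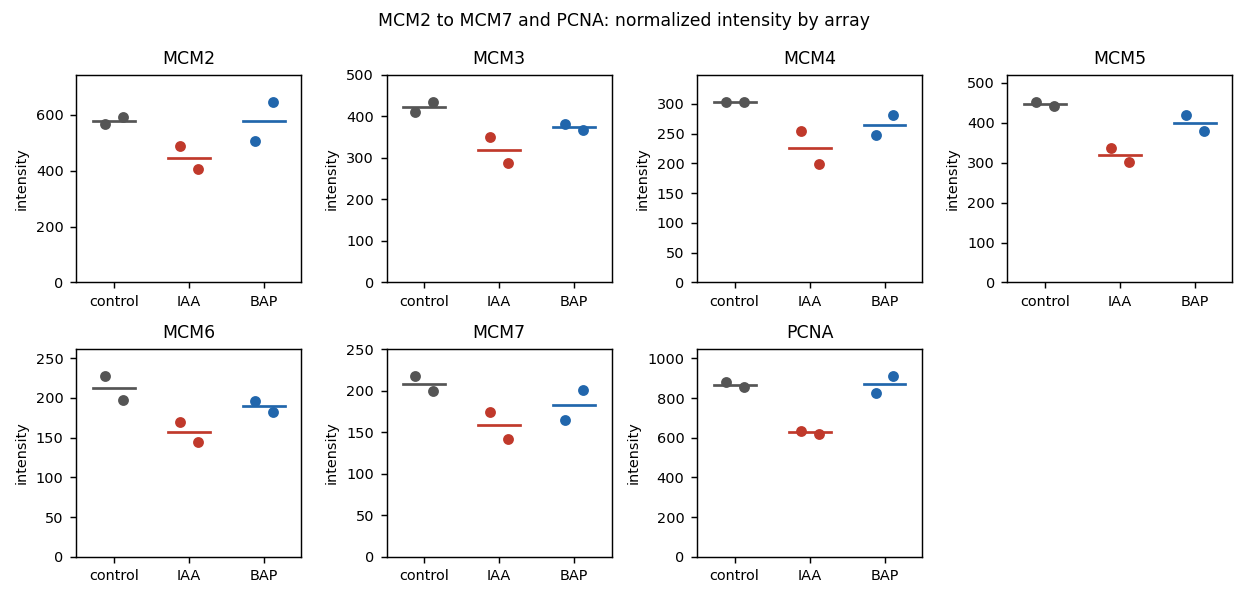
Normalized intensity of MCM2 to MCM7 and PCNA on each of the 6 arrays (points), with the mean of the 2 arrays of a group as a line. In all 7 genes both IAA points lie below both control points, and the PCNA points of BAP lie around those of the control.

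The remaining 2 MCM genes were dim. MCM8 (LOC4339038), a helicase known for repair by recombination, had intensities of 5.06 and 25.2 on the control arrays, 22.2 and 27.7 on the IAA arrays and 13.1 and 3.45 on the BAP arrays. Control array 1 and BAP array 2 were near background and control array 2 was beside the IAA arrays. Its log2 difference was 0.47 with IAA (95% interval -0.33 to 1.27) and ranged from -0.01 to 0.96 as arrays were left out. MCM9 (LOC4340503), its partner, had intensities of 23.2 and 25.9 on the control arrays, 13.3 and 13.9 on the IAA arrays and 21 and 16.7 on the BAP arrays, lower on both IAA arrays. Both MCM9 and MCM8 also have probe sets under the brightness limit or near it, and no order is drawn from them.

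Of the 5 H2B genes, H2B.10, H2B.6 and H2B.7 had both IAA arrays below both control arrays, as did 22.9% of all tested probe sets. In H2B.5 and H2B.11 the IAA and control arrays overlapped, with log2 differences of -0.08 and -0.09. The 95% intervals of the 5 genes overlap, and the difference between copies was not tested. H2B.6 (LOC4324502), the brightest, had intensities of 3376 and 3579 on the control arrays, 2733 and 2851 on the IAA arrays and 3219.5 and 2504 on the BAP arrays. All hormone arrays were below the control, and BAP array 2 was the lowest. H2B.10 (LOC4324495) had intensities of 1092 and 1130.3 on the control arrays, 953 and 694 on the IAA arrays and 1054 and 1087 on the BAP arrays. IAA array 2 was far below IAA array 1, and the BAP arrays lay just under the control. The log2 difference of H2B.10 was -0.44 with IAA (95% interval -0.77 to -0.11, limma adjusted p = 0.281) and 0.39 between BAP and IAA (95% interval 0.06 to 0.72, limma adjusted p = 0.289). Without IAA array 1 these were -0.67 and 0.61, and without IAA array 2 they were -0.21 and 0.16. H2B.6 had -0.29 with BAP (95% interval -0.56 to -0.02, limma adjusted p = 0.62), -0.47 without BAP array 1 and -0.11 without BAP array 2.

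H2B.10, H2B.7, H2B.6 and H2B.5 are close neighbours in the japonica gene order, with 5, 2 and 1 genes between successive members. Plant H2B genes are closely similar in sequence and the H2B.7 probe set is of a kind that can bind several genes, so signal may be shared and the value of each copy is uncertain. MCM6 lies 3 genes from CYCA1-4, and CYCD3-1 lies 5 genes from MCM9. These neighbours did not share a direction in every case, since CYCA1-4 was higher on the IAA arrays and MCM6 lower.

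Among the cyclins, the D-type gene CYCD3-1 had the widest difference between the hormones. With IAA, 8 of the 9 D-type genes had both arrays below both control arrays (22.9% of all tested probe sets did), with a median log2 difference of -0.25. With BAP, 5 of 9 did and CYCD3-1 had both arrays above, with a median of -0.12 (19.9% of all tested probe sets were lower and 17.8% higher with BAP without overlap). None of these differences passed the adjusted threshold, which 0.274% of probe sets passed with BAP. CYCD3-1 (LOC4340499), also the brightest of the 9, had intensities of 325 and 291 on the control arrays, 265 and 242 on the IAA arrays and 359 and 366 on the BAP arrays. The order was IAA, control, BAP with no overlap. The log2 difference was 0.23 for BAP against control (95% interval -0.07 to 0.52, limma adjusted p = 0.809) and 0.49 for BAP against IAA (95% interval 0.20 to 0.79, limma adjusted p = 0.11).

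CYCD5-1 (LOC4333455) was lower on the arrays of both hormones, with intensities of 117 and 127 on the control arrays, 80.6 and 91.4 on the IAA arrays and 77.2 and 85.9 on the BAP arrays. All 4 hormone arrays were below both control arrays, and the hormones overlapped. Its log2 difference was -0.44 with IAA (95% interval -0.80 to -0.07, limma adjusted p = 0.349) and -0.50 with BAP (95% interval -0.87 to -0.14, limma adjusted p = 0.416), the smallest p of all members with BAP. CYCD4-1 and CYCD3-2 were among the 5 lower members with the smallest p with BAP, at -0.29 and -0.32 (limma adjusted p = 0.68 and 0.767). CYCD5-2 had 0.01 with IAA on its brightest probe set, with IAA array 1 above and IAA array 2 below both control arrays.

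Of the kinases, CDKA-1 (LOC4331415), which acts through the whole cycle, had intensities of 784 and 721 on the control arrays, 660.5 and 732 on the IAA arrays and 759.8 and 751 on the BAP arrays. The 3 groups overlapped, apart from both BAP arrays lying above both IAA arrays, and the log2 difference with IAA was -0.11 (95% interval -0.36 to 0.15). CDKA-2 had -0.06 with BAP (limma adjusted p = 0.974), and its 3 probe sets disagreed with IAA, at 0.00 on the brightest and -0.45 and 0.06 on the others. CDKB2-1 (LOC4346016), the kinase of mitosis, had intensities of 530.0 and 564 on the control arrays, 492 and 440.0 on the IAA arrays and 416 and 553 on the BAP arrays. Both IAA arrays were below the control and BAP spanned both groups, with log2 differences of -0.23 and -0.18 (limma adjusted p = 0.666 and 0.901).

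All 4 KRP inhibitor genes had values below 0 with both hormones, with medians of -0.21 for IAA and -0.14 for BAP and no call. KRP6 was level with BAP, at -0.0017 (95% interval -0.50 to 0.50), with BAP array 1 above both control arrays. Of all genes by their brightest probe set, 52.1% were below 0 with IAA and 52.55% with BAP. KRP1 (LOC4330816), the brightest, had intensities of 757 and 671 on the control arrays, 451 and 597 on the IAA arrays and 667 and 446 on the BAP arrays. IAA array 1 and BAP array 2 were the low ones, and both groups lay below the control. Its log2 difference was -0.45 with IAA (95% interval -0.90 to 0.00, limma adjusted p = 0.461) and -0.38 with BAP (limma adjusted p = 0.767). Left-out arrays moved these values: with IAA it was -0.25 without IAA array 1, and with BAP it was -0.66 without BAP array 1 and -0.094 without BAP array 2. The order of the IAA arrays was opposite to that of the MCM genes: the KRP median was -0.37 on IAA array 1 and -0.08 on IAA array 2.

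B-type cyclin genes, which mark cells near mitosis, had values below 0 in 4 of 4 with IAA, with a median log2 difference of -0.24, and in 4 of 4 with BAP, with a median of -0.13, and 0 passed. The shares below 0 over all genes were 52.1% with IAA and 52.55% with BAP. CYCB1-1 (LOC4327547), the brightest, had intensities of 891 and 923 on the control arrays, 806 and 693 on the IAA arrays and 822 and 818 on the BAP arrays. The control arrays were the highest, and BAP array values were nearly equal and just above IAA array 1. It had -0.27 with IAA (95% interval -0.53 to -0.02, limma adjusted p = 0.427). CYCB2-1 had -0.20 with BAP (limma adjusted p = 0.833), and CYCB2-2 had 0.21 between BAP and IAA (limma adjusted p = 0.506). The other probe set of CYCB2-2 went the other way, at -0.17 (limma adjusted p = 0.748).

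A-type cyclins did not share a direction. CYCA3-2 had -0.255 with IAA (limma adjusted p = 0.6665), with both IAA arrays below both control arrays. CYCA1-4 (LOC4338177) had intensities of 113 and 99.6 on the control arrays, 129 and 131 on the IAA arrays and 123 and 101 on the BAP arrays. Both IAA arrays were above all others, and no other member had both above the control. Its log2 difference was 0.26 (95% interval -0.11 to 0.62, limma adjusted p = 0.636). CYCA2-1 (LOC4352280), the brightest, had intensities of 347 and 341 on the control arrays, 434 and 261 on the IAA arrays and 282 and 322 on the BAP arrays, with the IAA arrays on either side of the control. The 2 T-type cyclins are known from other organisms as partners of kinases of transcription and not of the cycle. CYCT1-4 (LOC4352229) had intensities of 964 and 886 on the control arrays, 957 and 887 on the IAA arrays and 924 and 959 on the BAP arrays, with all groups overlapping. CYCT1-2 had -0.18 with IAA, with both IAA arrays below both control arrays, and -0.10 with BAP (limma adjusted p = 0.663 and 0.941).

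**Figure D2:**
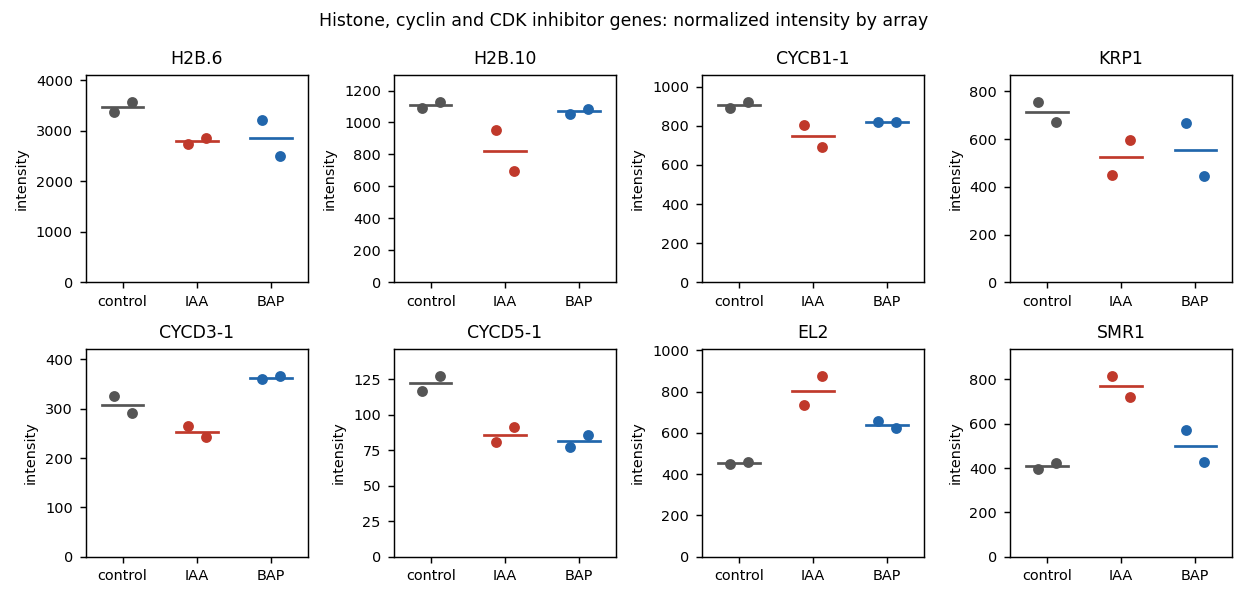
Normalized intensity on each of the 6 arrays (points) and the mean of each group (lines) for H2B.6, H2B.10, CYCB1-1, KRP1, CYCD3-1, CYCD5-1, EL2 and SMR1. CYCD3-1 is highest on the BAP arrays, CYCD5-1 is low with both hormones, and EL2 and SMR1 are highest on the IAA arrays.

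The KNOX genes are no histones. Their family is known for its role in shoot meristems, and OSH3 had the highest value of the list with BAP. OSH3 (LOC4333975) had intensities of 42.5 and 6.82 on the control arrays, 7.07 and 29.4 on the IAA arrays and 62.9 and 68.1 on the BAP arrays. The BAP arrays were the highest, and both the control arrays and the IAA arrays differed widely between replicates. Its log2 difference was 1.16 for BAP against control (95% interval 0.16 to 2.15, limma adjusted p = 0.555) and 1.33 for BAP against IAA (95% interval 0.34 to 2.33, limma adjusted p = 0.22). The former was 1.81 without control array 1 and 0.48 without control array 2, and the latter was 0.85 without IAA array 1. With no rescaling of the arrays the latter was 1.39 and passed, at a limma adjusted p of 0.00593. OSH45 (LOC4345191), the brightest of the 3, had intensities of 854 and 912 on the control arrays, 854 and 867 on the IAA arrays and 839 and 697 on the BAP arrays, and OSH43 had -0.49 with IAA at intensities of 4.96 to 20.3.

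Across the whole list, IAA against control gave 0 members past the adjusted threshold, where 0.851% of all tested probe sets passed. At an unadjusted p under 0.05, 12 of 42 members were lower and 0 higher, beside 5.6% lower and 5.25% higher of all tested probe sets. The number of members with such a p was 3 without control array 1, 4 without control array 2 and 5 without IAA array 2. Both IAA arrays were below both control arrays in 29 members and above in 1 (22.9% and 21.1% of all probe sets), and 12 overlapped. The values of 39 members were below 0 and those of 3 above, with a median log2 difference of -0.25 and a range of -0.49 to 0.47. Over all genes by their brightest probe set, the median was -0.01 and 52.1% were below 0. The median of the 32 members other than MCM2 to MCM7, PCNA and the KNOX genes was -0.22. The members' medians against the control mean were -0.20 on IAA array 1 and -0.27 on IAA array 2. These counts describe the list, and members are not independent of each other.

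BAP against control also gave 0 members past the adjusted threshold (0.274% of all tested probe sets passed), with the lowest limma adjusted p at 0.416. At an unadjusted p under 0.05, 2 members were lower (CYCD5-1 and H2B.6) and 1 higher (OSH3), against 3.48% and 4.09% of all probe sets. The number was 0 without control array 2 and 6 without BAP array 1. Both BAP arrays were below both control arrays in 20 members and above in 2 (19.9% and 17.8% of all probe sets), and 20 overlapped. The median was -0.12, in a range of -0.50 to 1.16, beside -0.01 over all genes, with 35 members below 0 and 7 above. Of all genes, 52.55% were below 0. The comparison shares its control arrays with the previous one, so the values are set side by side only. By array, the members' medians were -0.07 and -0.13.

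BAP against IAA gave 0 members past the adjusted threshold, where 2.24% of all tested probe sets passed. The IAA and BAP arrays were run on different days, so hormone and run day cannot be told apart in this comparison. At an unadjusted p under 0.05, 6 members were higher with BAP and 0 lower, beside 6.53% and 6.16% of all probe sets. They were PCNA, CYCD3-1, OSH3, H2B.10, MCM5 and MCM2, and without BAP array 2 the number was 3. Both BAP arrays were above both IAA arrays in 17 members and below in 4 (19.7% and 19.5% of all probe sets), and 21 overlapped. The median was 0.09, in a range of -0.78 to 1.33, beside 0.00 over all genes. For MCM2 to MCM7 and PCNA it was 0.25, with all 7 above 0, while 49.67% of all genes by their brightest probe set were below 0. These 7 were already low on the same IAA arrays against the control, so no further support is drawn from this. The intervals of these differences are wide, and a p that misses the threshold does not show that the hormones act alike.

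**Figure D3:**
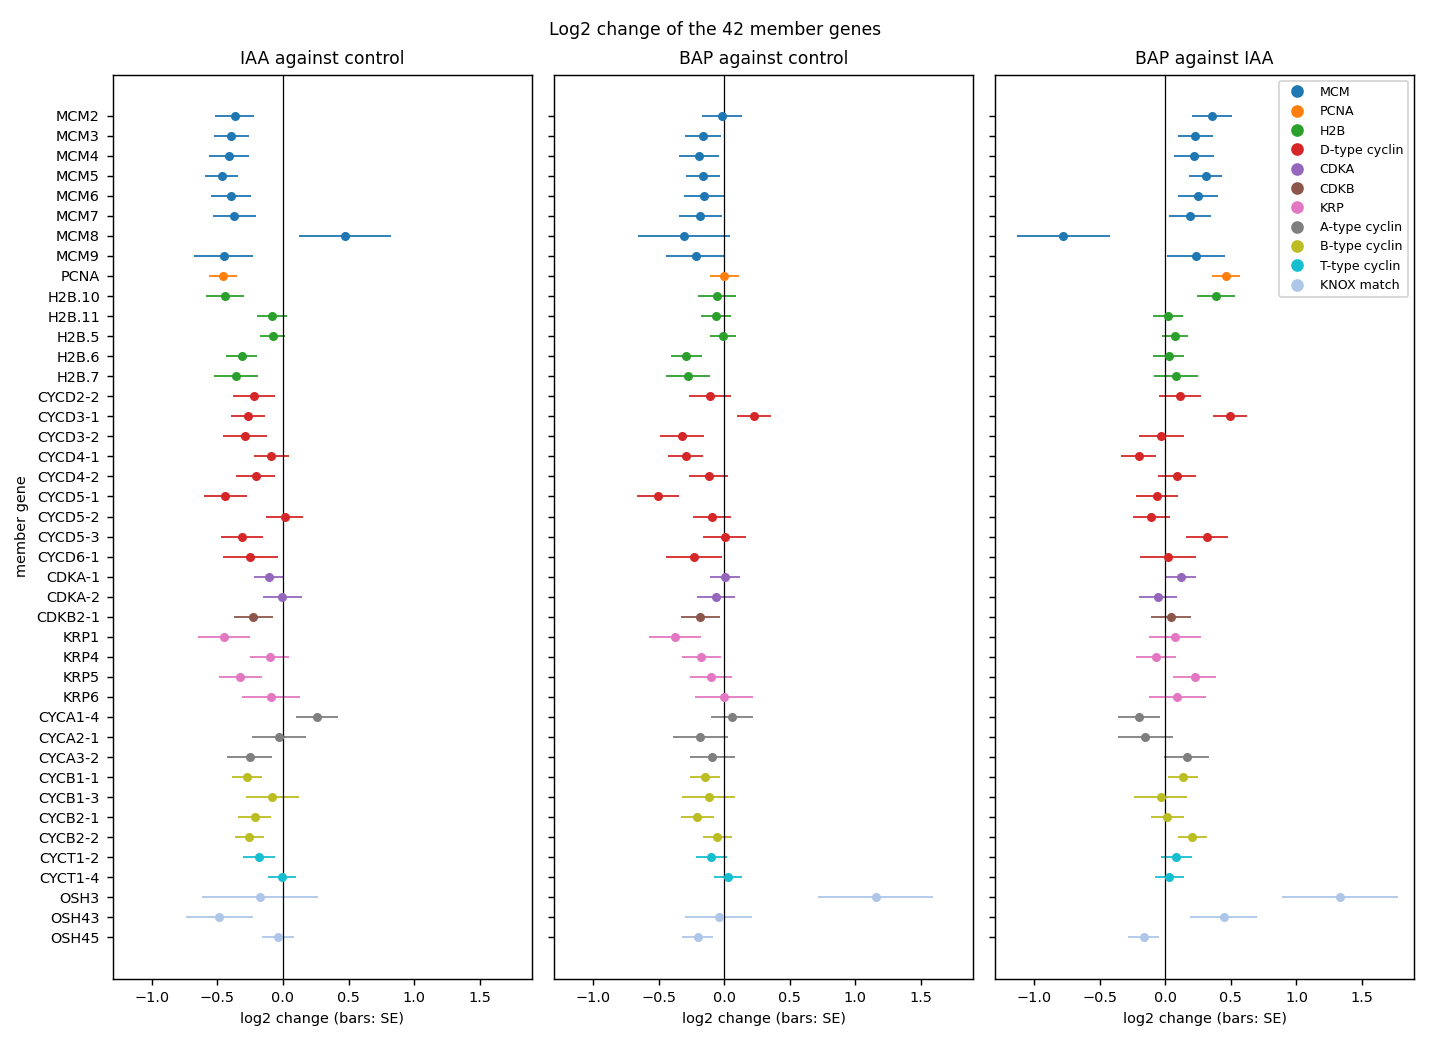
Log2 difference of each of the 42 genes (points, colour by role) with its standard error (bars), in 1 panel per comparison (each hormone with the control, and BAP with IAA). With IAA 39 of the 42 points lie below 0, and with BAP 35 do.

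**Figure D4:**
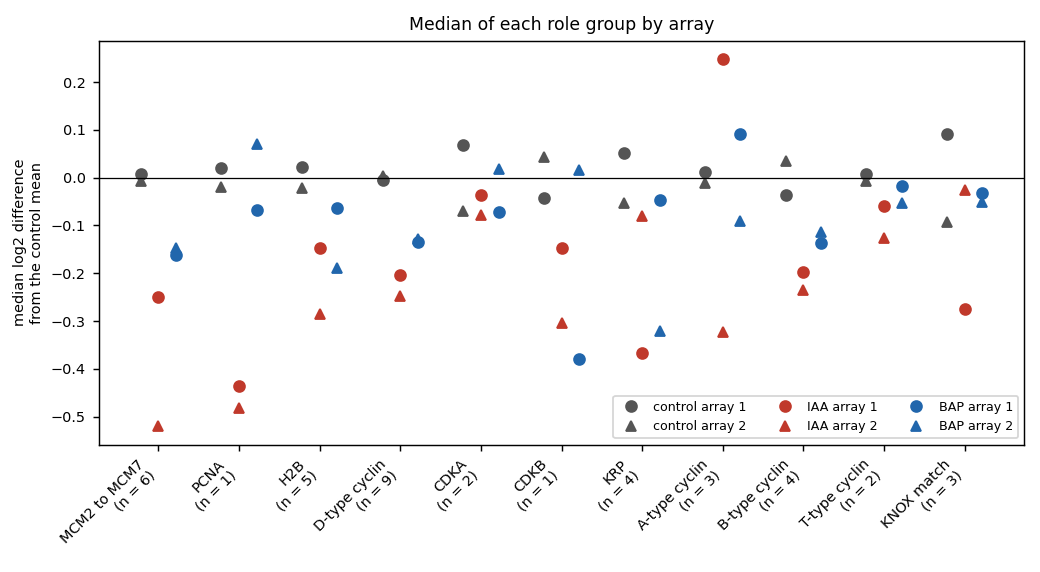
Median log2 difference from the control mean over the genes of each role, on each of the 6 arrays. For MCM2 to MCM7 the IAA arrays lie at -0.25 and -0.52 and the BAP arrays at -0.16 and -0.15, and the KRP medians on the IAA arrays lie at -0.37 and -0.08.

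Among 42 tested genes of the cell cycle and of DNA replication outside the list, 2 rose and 0 fell with IAA at the adjusted threshold. Of all tested probe sets, 0.851% passed it in either direction. Both code for CDK inhibitors of the SIAMESE-related kind, a family apart from the KRP proteins. EL2 (LOC4331332) had intensities of 449 and 461 on the control arrays, 734 and 876 on the IAA arrays and 655 and 622 on the BAP arrays. All hormone arrays were above the control, with IAA highest, and the log2 change with IAA was 0.80 (95% interval 0.52 to 1.08, limma adjusted p = 0.0227). Over the mean of all probe sets of EL2 it was 0.63 and did not pass (limma adjusted p = 0.116). SMR1 (LOC4349289) had intensities of 397 and 425 on the control arrays, 815 and 721 on the IAA arrays and 572 and 428 on the BAP arrays. Both IAA arrays were above all others, and the log2 change was 0.88 (95% interval 0.53 to 1.22, limma adjusted p = 0.0376). EL2 kept its call in 6 of 15 alternative settings and SMR1 in 8, and both lost it when any control or IAA array was left out (limma adjusted p up to 0.214 and 0.287 over the settings).

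Medians over the genes outside the list, with EL2 and SMR1 included among the regulators, were near 0. The median log2 difference with IAA was 0.00 over 21 regulators and -0.09 over 21 replication genes, such as those of the origin recognition complex, replication factor C and replication protein A, and 0 of these 21 passed. CKS1, which docks CDKs to their substrates, had intensities of 894 and 909 on the control arrays, 612 and 734 on the IAA arrays and 773 and 869 on the BAP arrays, with both IAA arrays lowest, and -0.42 with IAA (95% interval -0.70 to -0.14, limma adjusted p = 0.234). With BAP 0 passed, with EL2 at 0.48, Rbr1, a retinoblastoma-related repressor of cycle entry, at -0.35 and SMR1 at 0.26 (limma adjusted p = 0.26, 0.659 and 0.818). Rbr1 had -0.51 with IAA (95% interval -0.86 to -0.16, limma adjusted p = 0.236), with both IAA arrays below both control arrays. Between BAP and IAA 0 passed, with SMR1 at -0.62, CDKG-1 at -0.43 and EL2 at -0.32 (limma adjusted p = 0.0874, 0.228 and 0.307).

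Root and leaf markers were read beside these values, since the samples were whole seedlings. With BAP, 2 of 4 root transporter genes fell, the silicon channel Lsi1 with a log2 change of -0.89 and the silicon exporter Lsi2 with -1.67 (limma adjusted p = 0.00837 and 0.0126). NRAMP5 and HAK1 had -0.92 and -0.35 (limma adjusted p = 0.0715 and 0.492). Of all tested probe sets, 0.274% passed with BAP and 0.851% with IAA, in either direction. BAP and run day cannot be told apart here either. Lsi1 kept its call in 9 of 15 alternative settings and Lsi2 in 10. Both lost it with dim probe sets kept and with a spread that does not follow intensity (limma adjusted p up to 0.217 and 0.161). The call of Lsi1 was also lost when any control or BAP array was left out, and that of Lsi2 when either control array or BAP array 2 was. With IAA 0 of 4 passed, with Lsi1 at -0.44, Lsi2 at -0.68, NRAMP5 at -0.35 and HAK1 at 0.20 (limma adjusted p = 0.0958, 0.216, 0.466 and 0.627). HAK1 had both IAA arrays above both control arrays. The summed intensity of the 4 was 6169 to 6598 in the control, 4780.3 to 5397 with IAA and 3422 to 3507 with BAP, and none was at 0. That of the 3 leaf markers was 13034 to 13487 in the control, 13108 to 13591 with IAA and 13217 to 13629 with BAP. The part of the root markers' difference in the values of the cell cycle genes was not tested.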

How the data were processed

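Total RNA of 6 seedling samples was labelled with biotin and hybridised to 1 Affymetrix rice array each, per the labels' protocols. The authors deposited 1 linear intensity per probe set and array; the summary method and its software are not given in the sources used here. Run day and fluidics module were read per the file headers. Of 57381 probe sets, 187 array controls and 22878 with a mean under the 40th percentile (log2 4.70, intensity 9.94) were left out. The scale was log2(intensity + 16), quantile normalized, since array medians differed by up to 0.262 (log2), and printed intensities have the 16 subtracted again. Group means were fitted with limma 3.58.1 (R 4.3.3, eBayes with trend, 3 residual degrees of freedom, two-sided, Benjamini-Hochberg over 34316 probe sets, threshold 0.05) and tested on simulated data. Intervals are 95% intervals of that fit.

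Names came from the platform annotation and RefSeq's genes of a japonica assembly (22436 had 1 gene, and the 95 with several were left unnamed). The brightest probe set stood for a gene, and 9 of the 42 members had several. The members and lists were chosen with earlier results of these data known. Genes named in the text were the member past the threshold, if any, the brightest and the smallest-p member of each role, the 5 smallest p in each direction, and, of the other cell cycle genes, those past the threshold and the 3 smallest p. MCM2 to MCM7 are given in full as 1 complex, their grouping with PCNA was not planned, and further members are named only to complete a count. The 15 alternatives covered the scaling, pseudocount, filter, spread, probe set choice, replicate block, arrays fitted and each array left out. Promoters and proteins were not analysed here.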

Additional observations from a re-analysis of the deposited data

How the results depend on the processing

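None of the members passed the adjusted threshold under any of 15 alternatives with IAA or BAP against control. Between BAP and IAA 1 did, OSH3, with no rescaling between arrays. The member medians moved as follows, and the cause was not tested. With no rescaling they were -0.33 for IAA and 0.16 for BAP against IAA, and that setting also moved the median of all tested probe sets to -0.08 and 0.08. A pseudocount of 64, which shrinks all differences by construction, gave -0.19 for IAA, and centring on the median gave -0.16 for BAP. With arrays left out in turn, the medians ranged from -0.27 to -0.20 for IAA, from -0.14 to -0.073 for BAP and from 0.0557 to 0.15 for BAP against IAA. Same-numbered replicates did not deviate together (r = 0.017, 0.026 and -0.0595 over probe sets), so no shared effect of the replicate number was seen. These values cannot show whether same-numbered samples were grown or processed together. The replicate block left 0 members called and a median of -0.25 for IAA, changed no reported call of a named gene, and moved the number of calls over all tested probe sets to 320 for IAA, 95 for BAP and 756 between hormones. Without the KNOX genes, a setting chosen after seeing the data, the medians were -0.26, -0.12 and 0.08, with 0 calls each. For MCM2 to MCM7 and PCNA the IAA median ran from -0.51 to -0.25, with 7 of 7 below 0 in each alternative and the lowest limma adjusted p between 0.0919 and 0.676.

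Calls over all tested probe sets ranged from 68 to 502 with IAA (292 as reported), 13 to 210 with BAP (94) and 223 to 974 between hormones (769). Some uncalled values changed sign. With IAA these were CYCD5-2 (-0.071 with no rescaling, -0.13 to 0.15 with arrays left out) and MCM8 (-0.0101 to 0.96). With BAP they were PCNA and CDKA-1 (-0.0235 and -0.0215 after centring on the median) and CDKA-1 again (-0.0629 over the mean of its probe sets). With arrays left out, BAP values ran from -0.0673 to 0.0702 for PCNA, -0.0503 to 0.0673 for CDKA-1, -0.16 to 0.0362 for CDKA-2, -0.38 to 0.0158 for CDKB2-1, -0.0649 to 0.18 for CYCA1-4 and -0.0333 to 0.0866 for CYCT1-4. Between BAP and IAA, CDKB2-1 had -0.0058 after centring and -0.16 to 0.24 with arrays left out, CDKA-1 had -0.0513 over the mean of its probe sets, KRP5 ran from -0.002 to 0.45 and CYCD5-2 from -0.24 to 0.0314. Without IAA array 2, values with IAA were -0.25 for MCM3, -0.15 for CDKB2-1, -0.16 for CYCB1-1 and -0.28 for OSH43, and between hormones -0.19 for EL2. Without BAP array 2, CYCD3-2 was -0.20 and SMR1 0.46 with BAP, and without BAP array 1, CYCB2-1 was -0.12 and SMR1 0.0574. Without IAA array 1, CDKG-1 was -0.28 between hormones. MCM8, MCM9, OSH3 and OSH43 lie near the background, where values have little precision.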
